A study of Mus musculus with 10 samples.

Results

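The genes described here are those of the endogenous opioid system: the 4 receptors Oprm1, Oprk1, Oprd1 and Oprl1 and the 3 peptide precursors Penk, Pdyn and Pnoc. They were taken by symbol, 7 of the 33502 gene symbols in the deposited matrix, and all 7 were found. The matrix holds counts of single nuclei from tissue punches of the mouse paraventricular thalamus (PVT) and the regions around it. In this droplet method barcodes mark single nuclei and unique molecular identifiers (UMIs) mark single RNA molecules, so a count is a number of molecules. The data hold 20503 nuclei of C57BL/6J mice aged 12 weeks in 10 libraries, with no treatment named in the labels. The methods describe pools of mice for 4 replicates only, so pooling is not stated for all 10 libraries. The labels call 6 libraries female and give no sex for the other 4, here called unlabelled, whose nuclei are all male in the deposited metadata.

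Opioid receptors couple to inhibitory G proteins. When a peptide binds, adenylyl cyclases are inhibited, potassium channels of the GIRK family open and voltage-gated calcium channels close, so that neurons fire less and release less transmitter. The peptides are cut from precursors by prohormone convertases: enkephalins from Penk act mainly on the mu (Oprm1) and delta (Oprd1) receptors, dynorphins from Pdyn on the kappa receptor (Oprk1), and nociceptin from Pnoc on the nociceptin receptor (Oprl1). The PVT is a midline thalamic nucleus known for its part in arousal, stress and reward seeking, and it receives peptide-containing input from the hypothalamus.

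In the mouse genome build GRCm38 (mm10), with GENCODE M21 annotation, the 4 receptor genes lie at chr10:6758506-7038198 (Oprm1, plus strand), chr1:5588466-5606131 (Oprk1, plus), chr4:132110726-132144486 (Oprd1, minus) and chr2:181715016-181720985 (Oprl1, plus). The precursor genes lie at chr4:4133531-4138819 (Penk, minus strand), chr2:129686565-129699844 (Pdyn, minus) and chr14:65400673-65425472 (Pnoc, minus). All 7 are protein-coding. Oprm1 overlaps Gm10945 and Ipcef1 on the opposite strand, and Penk overlaps A830012C17Rik. Whether counting used the strand is not stated in the sources used here, and without it reads of overlapping genes cannot be told apart.

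The members differed widely in how many molecules were counted. Over all nuclei Oprm1 had 31291 UMIs, Oprk1 5603, Oprl1 2413, Pnoc 340, Penk 321, Pdyn 104 and Oprd1 50. The 3 receptors Oprm1, Oprk1 and Oprl1 passed edgeR's filter on low counts in the fits of neurons, and Oprm1 alone passed it over all cell types. Results for members under the filter come from a second fit with no filter and rest on few molecules, whose number is given beside them.

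Female libraries held 1049 to 1615 nuclei and 5119927 to 12891409 UMIs, and unlabelled libraries 875 to 7213 nuclei and 7568267 to 55956635 UMIs. The median neuron held 5666 to 9770 UMIs in female and 12586 to 21085 in unlabelled libraries. The 13 mitochondrial genes were counted in female libraries and stood at 0 in unlabelled ones, so sex, depth and gene annotation cannot be told apart between these groups. Of the barcodes, 46 occurred in more than 1 library (92 nuclei). Cell types are the authors' deposited names. Neurons with more than 1000 genes (10307 nuclei) were clustered again without the 7 opioid genes, and clusters were named from fixed markers: PVT-like, mediodorsal thalamus (MD)-like, intermediodorsal thalamus (IMD)-like, BSTpr-like (BSTpr is the principal bed nucleus of the stria terminalis) and habenula (Hb)-like. The "-like" is left out from here on. Every fixed marker was highest in its own class except Crhr1 of IMD. Clusters were made and named on the same nuclei as the tests, which thus describe them.

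Levels are given as CPM, the counts of a gene summed over the nuclei of a class in a library and scaled to the library sum after TMM normalisation. They are means ± SD over libraries, with at least 10 nuclei of a class required in a library. Tests are edgeR's quasi-likelihood tests of a class against the mean of the other classes or against 1 other class, with Benjamini-Hochberg adjustment over all genes tested, and folds are log2 fold changes ± SE. A gene was called at an adjusted p under 0.05 and an absolute log2 fold change over 0.5.

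Oprm1, the receptor through which morphine acts, was highest in neurons. Its level there was 267 ± 31.4 CPM (SD, n = 10), with 218 CPM in the lowest library, a median of 263 and 315 in the highest. No library reached 218 CPM in any other cell type. Neurons exceeded the mean of the other types by 2.88 ± 0.15 (adjusted p = 2.40e-28, edgeR), in 10 of 10 libraries. Of all genes tested, 57.3% were called in this contrast, so a call as such sets Oprm1 little apart.

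Among the other types Oprm1 was highest in microglia, the immune cells of the brain, at 80.6 ± 55.8 CPM (n = 10), with 21.3 CPM in the lowest library, a median of 62.7 and 186 in the highest. The spread was wide, with 2 unlabelled libraries (186 and 177 CPM) far above the others. Microglia exceeded the mean of the other types by 0.65 ± 0.23 (adjusted p = 0.0126, edgeR; 50% of genes called) and neurons exceeded microglia by 1.95 ± 0.23 (65.7% of genes called). The call over the other types was lost without unlabelled replicate 1 (0.48, adjusted p = 0.068), in unlabelled libraries alone, with sums of at least 30 nuclei and without nuclei marked as doublets by Scrublet. RNA of neurons was present in these nuclei: as a percent of the neuron level in the same library, microglia held 37.3% for Oprm1, 12.7% for Rbfox3, 15.4% for Syt1, 22.2% for Snap25 and 27.1% for Slc17a6 (means of 10 libraries). The percent for Oprm1 ran from 9.77 to 96.3 over the libraries. For each Oprk1 UMI there were 9.62 Oprm1 UMIs in microglia and 5.53 in neurons. Among the other types this ratio lay between 5.40 in OPCs and 8 in endothelial cells, the latter from 5 Oprk1 UMIs. The part of neuronal RNA in the microglial level was not tested.

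In the 6 further types Oprm1 lay between 30.8 ± 11.7 CPM in astrocytes (n = 10) and 43.6 ± 24.8 CPM in ependymal cells (n = 9), and no neighbours in that order differed. Astrocytes and oligodendrocytes were called lower than the mean of the other types, by -0.82 ± 0.21 and -0.73 ± 0.24 (adjusted p = 0.000758 and 0.00693, edgeR; 41.4% and 46.8% of genes called). The astrocyte call was lost in female libraries alone. The oligodendrocyte call was lost in either label group alone and without the library block.

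Oprk1, the dynorphin receptor, was also a neuronal transcript in these data. It stood at 42.1 ± 9.44 CPM in neurons (n = 10; lowest library 27.9, median 40.6, highest 59.5) and between 3.88 and 7.02 CPM in the mean of every other type. Neurons exceeded the other types by 3.30 ± 0.17 (adjusted p = 1.84e-45, edgeR without the filter; 45.3% of genes called), in 10 of 10 libraries. In this fit the median gene was higher in neurons by 0.56. The neuron folds of the other members below come from the same fit and stand against that median. The further call, lower in astrocytes by -0.85 ± 0.30, (24.9% of genes called) was lost without female replicate 4 (-0.71), without unlabelled replicate 4 (-0.51) and within either label group.

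Oprl1, the nociceptin receptor, was the member with a second high cell type. Oligodendrocyte precursor cells (OPCs), the dividing glia that give rise to oligodendrocytes, held 30.05 ± 15.4 CPM (n = 9; lowest library 0, median 30.7, highest 54.4), and neurons 21.3 ± 4.95 CPM (n = 10; lowest 11.6, median 22.4, highest 27.5). The OPC level rested on 64 UMIs in 8 of 9 libraries, each of which lay above the mean of its other types. OPCs exceeded the mean of the other types by 2.04 ± 0.29 (adjusted p = 1.81e-09, edgeR without the filter; 15.4% of genes called) and neurons did so by 1.92 ± 0.18. OPCs and neurons did not differ in the test (-0.11 ± 0.25 for neurons against OPCs, adjusted p = 0.849), where the median gene stood at 0.51. As a percent of the neuron level in the same library OPCs held 144% for Oprl1, against 14.8% for Oprm1, 16.7% for Oprk1, 14.7% for Rbfox3, 34.6% for Snap25, 14.0% for Syt1 and 25.9% for Slc17a6. After thinning each nucleus to 2000 UMIs, 6.73 ± 3.52% of OPCs had an Oprl1 UMI against 0.282 ± 0.542% of oligodendrocytes. The remaining types held 4.00 to 6.25 CPM of Oprl1.

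Penk, the enkephalin precursor, was highest in fibroblasts, the connective-tissue cells around vessels and in the meninges. Their level was 37.6 ± 28.7 CPM (n = 8; lowest library 0, median 43.7, highest 72.0), against 2.89 ± 1.82 CPM in neurons (n = 10) and at most 1.15 CPM in the mean of each further type. It rested on 23 UMIs in 14 of 179 fibroblast nuclei, in 6 of 8 libraries, with none in female replicate 1 and unlabelled replicate 2. Fibroblasts exceeded the mean of the other types by 4.91 ± 0.49 (adjusted p = 5.76e-17, edgeR without the filter; 10.5% of genes called) and neurons against fibroblasts gave -3.13 ± 0.43 (25.8%). Neurons exceeded the mean of the other types by 1.33 ± 0.32, a call lost in unlabelled libraries alone.

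Oprd1, the delta receptor, was barely detected: 46 of its 50 UMIs lay in neurons, where it stood at 0.527 ± 0.307 CPM and exceeded the mean of the other types by 2.21 ± 0.66, a call lost in unlabelled libraries alone. No Oprd1 UMI was found in astrocytes, whose count of 0 allows up to 0.175 CPM, so neurons were at least 2.08-fold higher. Pnoc stood at 3.55 ± 1.98 CPM in neurons, 1.75 ± 0.40 above the mean of the other types, and Pdyn at 0.959 ± 1.12 CPM. Neurons were not the highest type for these 3 members: Oprd1 had a mean of 1.17 CPM in ependymal cells (2 UMIs), Pnoc 5.46 CPM in fibroblasts (2 UMIs), and Pdyn 1.12 CPM in endothelial cells (1 UMI) and 1.00 in OPCs (2 UMIs), none of which differed from neurons in the test (adjusted p = 0.826, 0.951, 1 and 0.903, edgeR without the filter). Pdyn was not called in any cell type. Of the 48 tests of the 6 members under the filter 8 were calls, where 10.5% (fibroblasts) to 45.3% (neurons) of all genes were called in the same contrasts, so the members' share was not above the background.

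**Figure D1:**
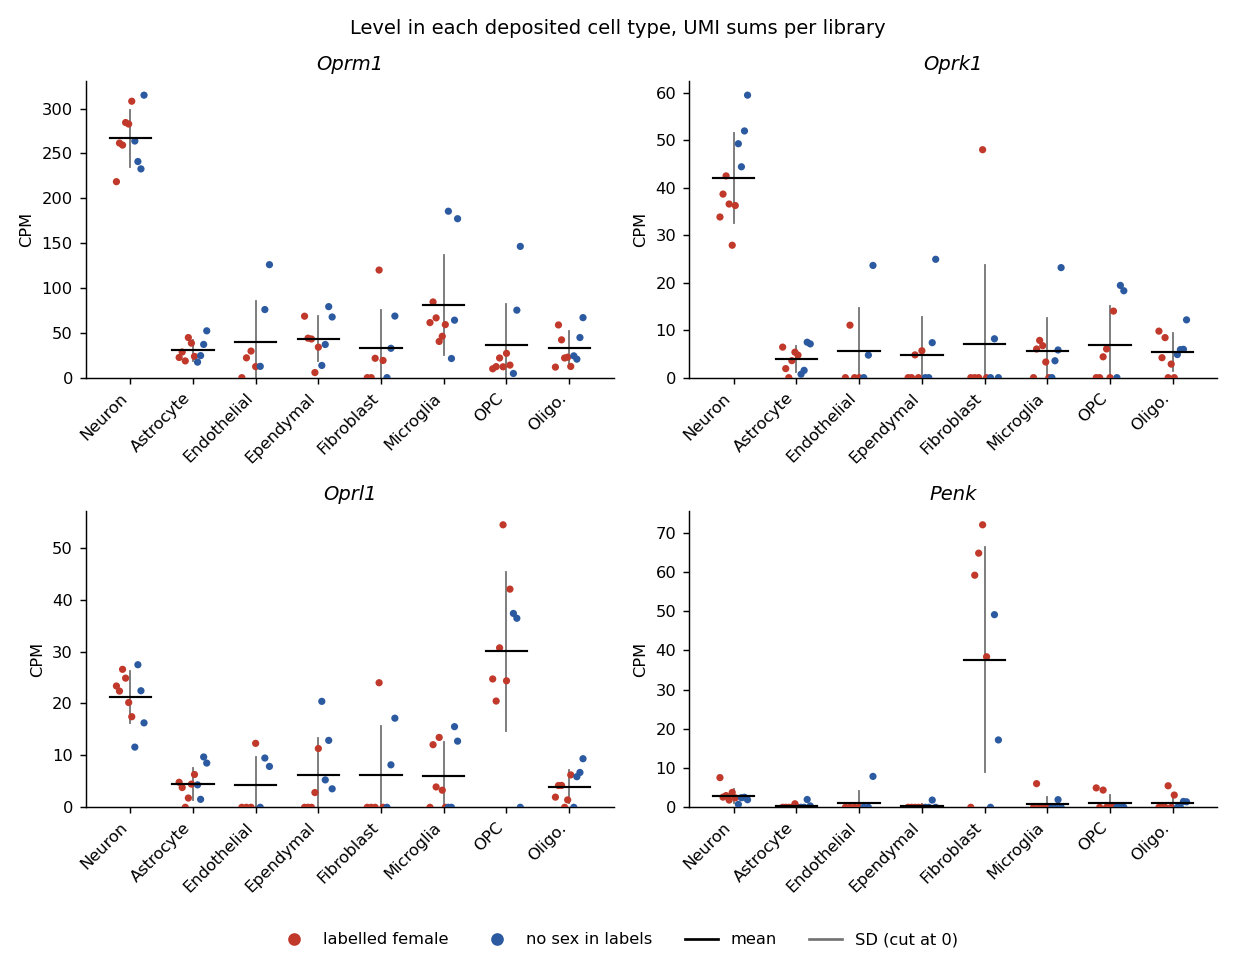
Levels of Oprm1, Oprk1, Oprl1 and Penk (CPM, vertical axes) by cell type, with 1 point per library coloured by label group, the mean as a line and the SD as a bar that is cut at 0. Neurons stand above every other type for Oprm1 (267 CPM) and Oprk1 (42.1 CPM), OPCs stand beside neurons for Oprl1 (30.05 and 21.3 CPM), and fibroblasts lead for Penk (37.6 CPM) with a wide spread.

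Among neurons the mu receptor was broadly present, and its order over the regions was MD, PVT, Hb, IMD and BSTpr. Oprm1 stood at 309 ± 35.9 CPM in MD (lowest library 242, median 313, highest 367), 248 ± 26.2 in PVT (209, 244 and 295) and 200 ± 117 in Hb (49.3, 209 and 457). It stood at 166 ± 56.1 CPM in IMD (65.5, 184 and 227) and 84.6 ± 26.9 in BSTpr (65.2, 75.1 and 157), n = 10 libraries each. The values of MD and PVT overlapped, every BSTpr library lay below every PVT library, and Hb spread over the whole range.

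Of the 15 tests of Oprm1, Oprk1 and Oprl1 against the other neuron groups 7 were calls. Between 14.8% (IMD) and 41.5% (Hb) of all genes were called in the same contrasts, with 17.7% in PVT, 26.5% in MD and 19.2% in BSTpr. For Oprm1, MD exceeded the mean of the other groups by 0.96 ± 0.13 and PVT by 0.56 ± 0.12, and BSTpr was lower (-1.41 ± 0.18), each in edgeR's quasi-likelihood test (adjusted p = 3.16e-09, 0.000144 and 4.26e-09). PVT and MD did not differ beyond the spread (-0.32 ± 0.15, adjusted p = 0.0761), nor did IMD and Hb (-0.10 ± 0.20, adjusted p = 0.685). PVT against Hb passed the p but not the fold (0.45 ± 0.18). Hb lay at the mean of the other groups (0.00 ± 0.16), but was called higher in female libraries alone (0.52) and lower with single markers (-0.54). The 3 calls depended on how neurons were split: with neurons assigned by 1 marker each (C1ql3, Adarb2, Lpl, Gad2 or Nwd2) the folds fell to 0.31 in MD, 0.28 in PVT and -0.08 in BSTpr, and none was called. The PVT call was also lost in female libraries alone.

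The wide spread of Oprm1 in Hb was followed up after its values had been seen. Nuclei of Hb with at least 3 UMIs of Chat, the gene for the enzyme that makes acetylcholine, held 62.5 ± 50.6 CPM of Oprm1 (269 nuclei, n = 8 libraries, without TMM scaling), against 247 ± 129 CPM in those with fewer (619 nuclei, n = 10). The libraries overlapped, with up to 158 CPM in the first set and from 78.5 CPM in the second. Nuclei with at least 3 Chat UMIs were the deeper ones, with a median of 11959 UMIs against 5499. In a second split, by Tac2, the neurokinin B precursor, the levels overlapped too. Nuclei with at least 3 Tac2 UMIs held 233 ± 137 CPM of Oprm1 (574 nuclei) and those with fewer 167 ± 121 CPM (314 nuclei), n = 10 libraries each. Here too the first were deeper (medians of 8190.5 and 5489 UMIs). Neither split was tested.

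Oprk1 was the receptor that separated PVT from its neighbours. It stood at 57.7 ± 10.0 CPM in PVT (lowest library 41.8, median 60.7, highest 70.3), 28.2 ± 17.1 in BSTpr (10.1, 25.1 and 63.6) and 20.1 ± 5.00 in IMD (14.3, 20.02 and 27.5). It stood at 12.8 ± 6.44 CPM in MD (3.40, 12.7 and 22.03) and 5.01 ± 3.64 in Hb (0.980, 4.02 and 12.8). Every PVT library lay above every library of MD, IMD and Hb, and BSTpr overlapped with PVT through its highest libraries.

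For Oprk1, PVT exceeded the mean of the other groups by 2.21 ± 0.12 (adjusted p = 2.87e-22, edgeR), in 10 of 10 libraries, and Hb was lower (-2.60 ± 0.28). Both calls were kept in all 21 alternatives, with a PVT fold between 1.72 and 2.40. PVT exceeded BSTpr, next in the order, by 1.41 ± 0.18 (21.3% of genes called). BSTpr and IMD did not differ (-0.12 ± 0.24 for IMD against BSTpr, adjusted p = 0.773), nor did IMD and MD (-0.52 ± 0.21 for MD against IMD, adjusted p = 0.0608), and MD exceeded Hb by 1.80 ± 0.33 (47.1%). The study's own gene lists for PVT, drawn from these nuclei, include Oprk1 and Oprm1, so their levels there are not independent evidence.

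MD was made of 2 clusters that stood apart in Oprk1 (CPM here without TMM scaling). The cluster of 1052 nuclei held 24.0 ± 12.0 CPM and that of 941 nuclei 2.97 ± 2.57 CPM (n = 10 libraries each), so the highest library of the second (6.69 CPM) lay just below the lowest of the first (6.79 CPM). Oprm1 was 329 ± 30.6 CPM in the first and 252 ± 35.1 CPM in the second, while Pnoc was 3.37 ± 2.66 and 8.47 ± 4.13 CPM. The opioid genes were not used to make these clusters, and the difference was not tested.

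Oprl1 varied less over the neuron groups than Oprm1 and Oprk1. It stood at 28.2 ± 10.3 CPM in BSTpr (lowest library 13.2, median 27.4, highest 48.9), 24.9 ± 6.77 in Hb, 18.6 ± 4.69 in PVT (9.84, 19.0 and 27.5), 17.6 ± 6.14 in IMD and 15.1 ± 4.35 in MD (8.07, 15.1 and 22.2). Libraries of all 5 groups overlapped. BSTpr was called higher by 0.54 ± 0.12 and MD lower by -0.56 ± 0.10 (adjusted p = 0.000256 and 3.81e-06, edgeR). The BSTpr call was lost without unlabelled replicate 2, in unlabelled libraries alone and with the single markers, and the MD call with the single markers. Called pairs were MD against BSTpr (-0.88 ± 0.14), MD against Hb (-0.68 ± 0.15; 47.1% of genes called), IMD against BSTpr (-0.56 ± 0.16) and PVT against BSTpr (-0.53 ± 0.13; 21.3%). PVT against MD and PVT against Hb passed the p but not the fold (0.35 ± 0.11 and -0.33 ± 0.13). PVT did not differ from IMD (0.03 ± 0.13, adjusted p = 0.944), nor BSTpr from Hb (0.20 ± 0.16, adjusted p = 0.331).

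**Figure D2:**
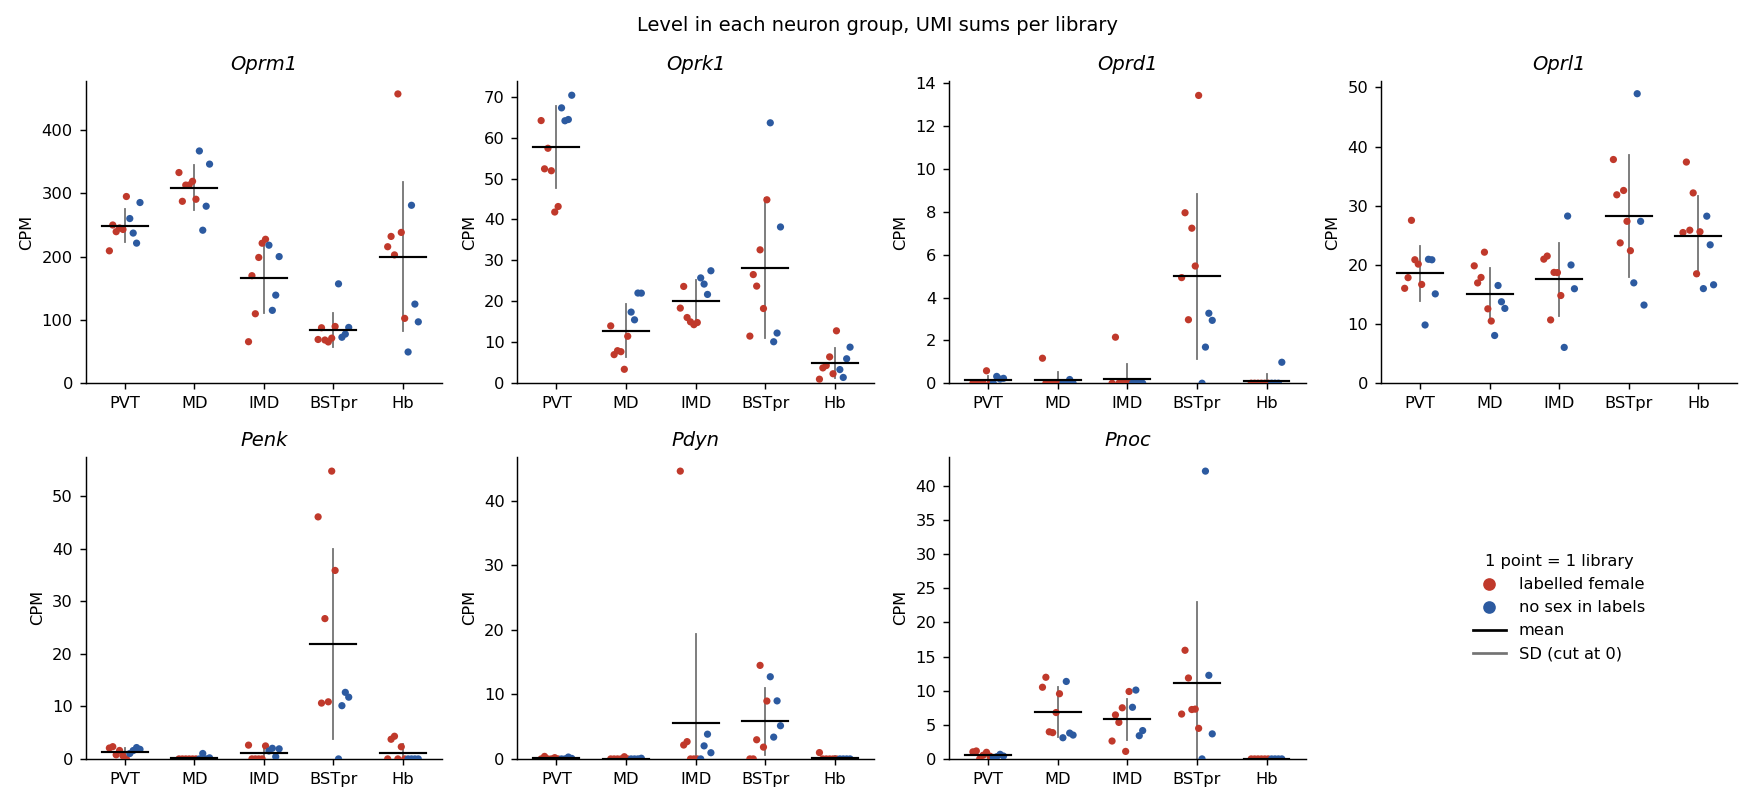
Levels of the 7 members (CPM, vertical axes) in the 5 neuron groups, with 1 point per library coloured by label group, the mean as a line and the SD as a bar that is cut at 0. Oprk1 is highest in PVT (57.7 CPM) and lowest in Hb (5.01 CPM), Oprm1 is lowest in BSTpr (84.6 CPM), and Penk and Oprd1 have their highest mean in BSTpr (21.9 and 4.99 CPM).

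Penk and Oprd1 were highest in BSTpr, Pdyn in BSTpr and IMD, and Pnoc in BSTpr, MD and IMD. The counts were small, and 12 of 20 tests of these 4 members without the filter were calls, where 8.49% (IMD) to 25.1% (Hb) of all genes were called in the same contrasts, with 14.4% in PVT, 17.6% in MD and 12.5% in BSTpr. The 4 calls in BSTpr were all higher and were kept in all 12 alternatives, in which libraries were left out in turn or a label group was taken alone. Other splits of neurons, such as by single markers, were not among these alternatives.

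Penk stood at 21.9 ± 18.1 CPM in BSTpr (lowest library 0, median 12.2, highest 54.7), from 135 UMIs in 68 of 882 nuclei. It stood at 1.40 ± 0.767 CPM in PVT, 1.10 ± 1.11 in IMD, 1.04 ± 1.74 in Hb and 0.124 ± 0.326 in MD. In 9 of 10 libraries BSTpr lay above the mean of the other groups, and in unlabelled replicate 1 it had no Penk UMI. BSTpr exceeded the mean of the other groups by 4.90 ± 0.26 (adjusted p = 1.07e-74, edgeR without the filter). PVT exceeded MD by 3.37 ± 0.50 (17% of genes called) and did not differ from IMD (0.53 ± 0.44, adjusted p = 0.607). The lower call of MD was lost in unlabelled libraries alone, and that of Hb in 7 of 12 alternatives, among them those without female replicates 1 and 6 and without each unlabelled library.

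Pdyn stood at 5.84 ± 5.17 CPM in BSTpr (lowest library 0, median 4.26, highest 14.5; 42 UMIs in 28 nuclei) and at 5.62 ± 13.7 CPM in IMD (0, 1.49 and 44.6; 32 UMIs in 22 nuclei). The IMD mean was set by female replicate 1, which held 17 of those UMIs. BSTpr exceeded the mean of the other groups by 3.94 ± 0.44 and IMD by 3.20 ± 0.45 (adjusted p = 8.02e-18 and 4.56e-11, edgeR without the filter), and they did not differ from each other (-0.59 ± 0.43 for IMD against BSTpr, adjusted p = 0.491). PVT, with 10 Pdyn UMIs in 5746 nuclei, was lower than IMD (-4.12 ± 0.51; 9.34% of genes called) and BSTpr (-4.71 ± 0.49; 13.9%). The lower call of PVT against the other groups was lost in 10 of 12 alternatives and that of MD in 4, in both cases among them without female replicate 1 (adjusted p = 1).

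Pnoc stood at 11.1 ± 11.8 CPM in BSTpr (lowest library 0, median 7.27, highest 42.2; 81 UMIs), 6.84 ± 3.64 in MD (3.10, 5.39 and 12.0; 131 UMIs) and 5.81 ± 3.03 in IMD (1.10, 5.90 and 10.1; 44 UMIs). PVT held 0.572 ± 0.382 CPM (39 UMIs in 5746 nuclei) and Hb no UMI. All MD libraries lay above the highest PVT library (1.16 CPM). PVT was lower than MD (-3.13 ± 0.26), IMD (-2.90 ± 0.34) and BSTpr (-3.96 ± 0.30), each called by edgeR without the filter (adjusted p = 3.41e-31, 1.24e-15 and 2.98e-38). MD and IMD did not differ (0.23 ± 0.28, adjusted p = 0.789), and MD was lower than BSTpr (-0.83 ± 0.25; 20.6% of genes called). The call of IMD over the mean of the other groups (2.06 ± 0.38) was lost in female libraries alone. The count of 0 in Hb allows 0.3998 CPM, so Pnoc was at least 31.0-fold higher in BSTpr, 11.4-fold in MD, 10.9-fold in IMD and 1.33-fold in PVT, from UMIs pooled over libraries.

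Oprd1 stood at 4.99 ± 3.84 CPM in BSTpr (lowest library 0, median 4.10, highest 13.4), where 28 of the 46 UMIs of neurons lay, in 9 of 10 libraries. PVT held 14 Oprd1 UMIs, or 0.132 ± 0.198 CPM. BSTpr exceeded the mean of the other groups by 4.44 ± 0.56 (adjusted p = 4.55e-14, edgeR without the filter).

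BSTpr was a mixed group: 25.6% of its 882 nuclei had a UMI of Gad1 or Gad2, the enzymes that make GABA, and 73.0% a UMI of Slc17a6, the vesicular glutamate transporter, against 9.38% and 97.4% in PVT. Its median nucleus held 6225.5 UMIs. Among nuclei with a Pnoc UMI 55.6% had a Gad1 or Gad2 UMI (30 of 54), among those with Oprd1 52.2% (12 of 23), with Penk 38.2% (26 of 68) and with Pdyn 17.9% (5 of 28). Hcrt, a leading gene of this cluster singled out after its values were seen, had 338 of its 340 UMIs there in unlabelled replicate 3, which also held 22 of the 42 Pdyn UMIs of BSTpr. A single nucleus held 335 of the Hcrt UMIs, with 2 Pdyn UMIs.

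Within PVT the clusters were named after the 5 subtypes of the study, with 2373 (PVT1), 736 (PVT2), 933 (PVT3), 881 (PVT4) and 823 nuclei (PVT5). PVT1 joined clusters of 1557, 668 and 148 nuclei that were given the same name, and the other subtypes were single clusters. In the study PVT1 and PVT2 lean to the posterior and PVT3 and PVT4 to the anterior PVT. Of the 15 tests of Oprm1, Oprk1 and Oprl1 against the other subtypes 7 were calls, where 6.75% (PVT1), 10.4% (PVT2), 14.8% (PVT3), 9.31% (PVT4) and 6.35% (PVT5) of all genes were called.

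Oprm1 was low in PVT3 and high in the other subtypes. It stood at 324 ± 39.5 CPM in PVT5 (lowest library 244, median 318, highest 396), 298 ± 27.6 in PVT1 (258, 293 and 348) and 274 ± 42.1 in PVT4 (211, 261 and 349). It stood at 214 ± 31.2 CPM in PVT2 (171, 216 and 258) and 86.9 ± 20.9 in PVT3 (48.2, 91.3 and 124). The PVT3 libraries did not overlap with those of any other subtype, and the highest PVT2 library lay just below the lowest PVT1 library, while the further pairs of subtypes overlapped. Clusters joined as PVT1 held different Oprm1 means (CPM without TMM scaling), a difference that was not tested. The means were 333 ± 25.4 for the 1557 nuclei and 247 ± 45.6 for the 668 nuclei (n = 10 libraries each). For the 148 nuclei the mean was 223 ± 74.2 (n = 5).

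Against the mean of the other subtypes Oprm1 was lower in PVT3 (-1.74 ± 0.06, adjusted p = 4.55e-42, edgeR), and PVT5 and PVT1 were higher by 0.75 ± 0.05 and 0.57 ± 0.04. PVT4 passed the p but not the fold (0.44 ± 0.05), and PVT2 was close to the mean (-0.02 ± 0.06). In the order of levels PVT5 and PVT1 did not differ (-0.14 ± 0.06 for PVT1 against PVT5, adjusted p = 0.0577), nor did PVT1 and PVT4 (0.10 ± 0.06, adjusted p = 0.197). PVT2 against PVT4 and PVT4 against PVT5 passed the p but were under the fold limit (-0.37 ± 0.07 and -0.24 ± 0.06). PVT2 exceeded PVT3 by 1.38 ± 0.08 (20.8% of genes called). With nuclei assigned by a single marker (Cadps2) the fall of Oprm1 in PVT3 was -0.86 and still called.

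Oprk1 had another order. It stood at 76.0 ± 12.4 CPM in PVT4 (lowest library 58.7, median 80.3, highest 88.5), 68.5 ± 13.0 in PVT1 (51.6, 68.8 and 84.5) and 66.1 ± 24.5 in PVT2 (33.7, 65.6 and 117). It stood at 39.7 ± 10.2 CPM in PVT5 (28.1, 39.1 and 61.5) and 35.1 ± 12.9 in PVT3 (18.9, 33.3 and 61.4). Oprk1 was thus low in PVT5, where Oprm1 was highest, and low in PVT3, where Oprm1 was low too.

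PVT4 and PVT1 were called higher for Oprk1, by 0.70 ± 0.08 and 0.52 ± 0.06, and PVT3 and PVT5 lower, by -0.93 ± 0.09 and -0.57 ± 0.09 (adjusted p = 3.54e-13, 2.00e-11, 1.36e-15 and 5.04e-08, edgeR). PVT1 fell to 0.36 to 0.49, under the fold limit, in 6 of 20 alternatives, among them those without unlabelled replicates 3 and 4. The PVT5 call was lost in female libraries alone, and that of PVT4 with a single marker. PVT4, PVT1 and PVT2 were not told apart as neighbours (PVT1 against PVT4 -0.15 ± 0.08, adjusted p = 0.188; PVT1 against PVT2 0.18 ± 0.09, adjusted p = 0.197), but PVT2 against PVT4 passed the p and not the fold (-0.33 ± 0.10). PVT5 and PVT3 were not told apart either (adjusted p = 0.0521), while PVT2 exceeded PVT5 by 0.69 ± 0.11 (9.34% of genes called).

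Oprl1 was more even. Its means were 24.0 ± 6.74 CPM in PVT4, 23.5 ± 10.1 in PVT3, 17.4 ± 9.18 in PVT2, 17.0 ± 5.43 in PVT5 and 16.2 ± 4.85 in PVT1, with overlapping libraries. None of the 5 tests against the other subtypes was a call in edgeR's quasi-likelihood test, although 3 had an unadjusted p under 0.05 and passed the adjusted p below the fold limit: PVT1 (-0.35), PVT3 (0.28) and PVT4 (0.33). PVT1 lay below PVT3 by -0.50 ± 0.13 and below PVT4 by -0.55 ± 0.13, and both were calls (17.5% and 12.3% of genes called).

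The anterior subtypes, PVT3 and PVT4, were set against the posterior PVT1 and PVT2. Oprm1 was lower in the anterior subtypes by -0.74 ± 0.05 (adjusted p = 1.73e-24, edgeR), a call where 14.3% of all genes were called. PVT4 did not share the low level of PVT3, so the anterior mean joins a low and a high subtype. Oprk1 (-0.42 ± 0.07) and Oprl1 (0.49 ± 0.10) passed the adjusted p (3.35e-07 and 2.84e-05) but not the fold, and Oprl1 passed both in 6 of 20 alternatives.

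**Figure D3:**
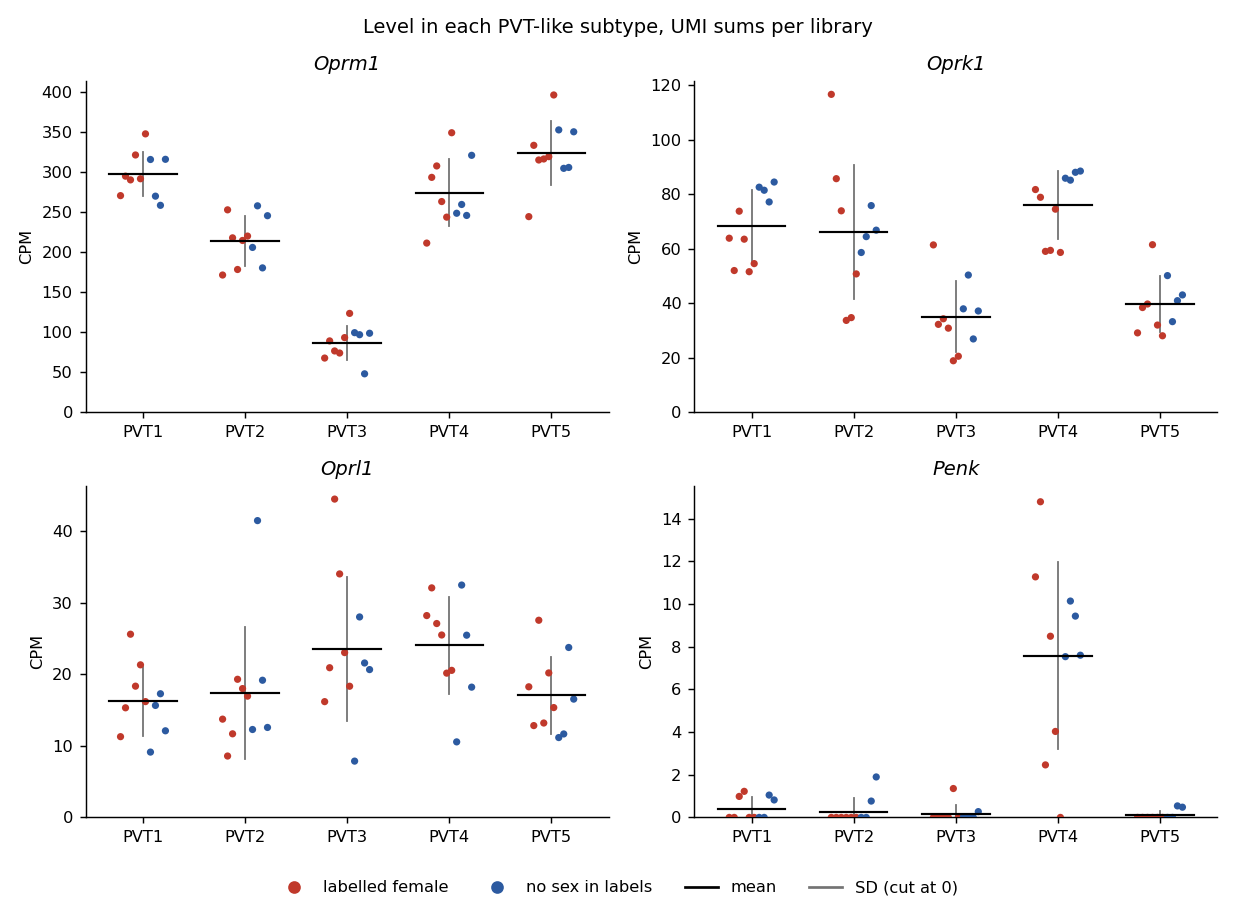
Levels of Oprm1, Oprk1, Oprl1 and Penk (CPM, vertical axes) in the 5 PVT subtypes, with 1 point per library coloured by label group, the mean as a line and the SD as a bar that is cut at 0. PVT3 is low for Oprm1 (86.9 CPM) and Oprk1 (35.1 CPM), PVT5 is low for Oprk1 (39.7 CPM) but not for Oprm1 (324 CPM), and Penk stands out in PVT4 (7.57 CPM).

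Penk was concentrated in PVT4. This subtype held 86 of the 121 Penk UMIs of PVT, in 48 of its 881 nuclei and in 9 of 10 libraries. Its level was 7.57 ± 4.38 CPM (lowest library 0, median 8.04, highest 14.8), against 0.407 ± 0.534 in PVT1, 0.266 ± 0.621 in PVT2, 0.162 ± 0.427 in PVT3 and 0.102 ± 0.215 in PVT5. In each of those 9 libraries PVT4 lay above the mean of the other subtypes, and female replicate 6 had no Penk UMI there.

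PVT4 exceeded the mean of the other subtypes in Penk by 3.91 ± 0.33 (adjusted p = 3.49e-31, edgeR without the filter), where 6.58% of all genes were called. The fold lay between 3.80 and 4.34 in 12 alternatives, all with the same split of nuclei. PVT3 was called lower by -2.33 ± 0.71 from 2 UMIs (11.3% of genes called), a call lost without unlabelled replicate 3, without unlabelled replicate 4 and in female libraries alone. A cluster of 148 nuclei within PVT1, led by the activity-induced genes Fosb and Npas4, held 3.84 ± 5.49 CPM of Penk from 10 UMIs (n = 5 libraries, without TMM scaling). Pdyn, Pnoc and Oprd1 gave no call in edgeR over the 5 subtypes, with 10 to 39 UMIs in all of PVT.

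Detection grows with depth, so each nucleus was thinned to 2000 UMIs before the share of nuclei with a UMI of a member was counted. This left out 1663 of 7501 female and 1269 of 13002 unlabelled nuclei as too shallow. Oprm1 was then detected in 34.8 ± 3.80% of PVT nuclei, 38.1 ± 6.13% of MD, 24.0 ± 8.57% of Hb, 20.6 ± 8.05% of IMD and 13.1 ± 5.05% of BSTpr (n = 10). Oligodendrocytes, taken here as the background of free RNA, had 3.48 ± 3.60%, the lowest share of the cell types. The other non-neuronal types lay between 3.95 ± 6.52% (endothelial cells, n = 6) and 11.5 ± 8.51% (microglia, n = 10). Whether any of these shares measures free RNA was not tested. The median nucleus held 11884 UMIs in PVT and 2759 in oligodendrocytes before thinning. Without thinning 73.6% of PVT nuclei had an Oprm1 UMI.

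The shares of Oprm1 kept the order of its levels within PVT. It was detected in 44.9 ± 5.22% of PVT5, 40.6 ± 4.76% of PVT1, 36.1 ± 7.37% of PVT4, 32.4 ± 9.46% of PVT2 and 14.5 ± 3.54% of PVT3 nuclei. Oprk1 was detected in 11.3 ± 2.02% of PVT nuclei (41.8% without thinning) against 0.697 ± 1.02% of oligodendrocytes, and in 13.2 ± 3.49% of PVT4 against 9.03 ± 4.16% of PVT3 and 6.67 ± 3.53% of PVT5 nuclei, where PVT3 and PVT5 lay within each other's SD. Oprl1 was detected in 4.05 ± 1.37% of PVT nuclei (18.1% without thinning). Penk was detected in 3.90 ± 3.12% of BSTpr and 1.16 ± 1.11% of PVT4 nuclei, against 0.0387 ± 0.0861% of oligodendrocytes.

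Whether 2 members were found in the same nuclei was asked for 10 fixed pairs in PVT or BSTpr. Each pair joined 2 receptors, 2 precursors, or a receptor and a precursor. Odds ratios were taken within 5 bins of depth in each library and, in PVT, within subtypes. A pair with a single usable library (Oprk1 and Pdyn in PVT) gave no p. None of the 9 others passed the Benjamini-Hochberg adjustment in an exact two-sided sign-flip permutation test over libraries. Of these, Penk and Pdyn (2 libraries) and Oprk1 and Pdyn (3 libraries) in BSTpr could not pass. The smallest p that the permutation test allowed them was 0.5 and 0.25. Pairs with 6 or 7 libraries, where it was 0.031 and 0.016, could not pass alone. The unadjusted p was under 0.05 for 2 pairs. For Oprm1 and Oprk1 in PVT 2242 nuclei held both against 2213 expected at like depth, with a mean log odds ratio of 0.27 over 0 in 8 of 10 libraries (exact permutation p = 0.0430, adjusted 0.193). For Oprk1 and Oprl1 579 nuclei held both against 561 expected (0.33, 8 of 10 libraries, exact permutation p = 0.0234, adjusted 0.193), and the smallest p that 10 libraries allow is 0.00195. Penk and Oprm1 in PVT were found together in 59 nuclei against 59.8 expected (-0.04, exact permutation p = 0.938, 7 libraries).

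The libraries were then compared by label group within each neuron group, female minus unlabelled. Of 15 tests of members that passed the filter 2 were calls, where 13.1% (PVT), 8.97% (MD), 7.62% (IMD), 7.47% (BSTpr) and 8.02% (Hb) of all genes were called. In PVT the receptors gave 0 calls of 3 in edgeR, with an unadjusted p under 0.05 in 1: Oprm1 differed by 0.00, Oprk1 by -0.34 and Oprl1 by 0.28.

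Oprk1 in MD was lower in the female libraries. Its levels were 14.0, 6.98, 7.94, 7.70, 3.40 and 11.5 CPM in female replicates 1 to 6 and 17.4, 15.5, 22.03 and 21.999 CPM in unlabelled replicates 1 to 4, so the groups did not overlap. The log2 difference was -1.34 ± 0.29 (adjusted p = 0.00499, edgeR). It lay between -1.53 and -1.06 in the 14 alternatives that could be fitted and was called in each. Within each MD cluster the means lay in the same direction but the libraries overlapped, and the difference was not tested there. The cluster high in Oprk1 held 17.3 ± 9.60 CPM in female (5 to 12 UMIs a library) and 34.1 ± 7.21 in unlabelled libraries (11 to 174 UMIs), and the low cluster 1.51 ± 1.91 (0 to 3 UMIs) and 5.16 ± 1.77 (4 to 40 UMIs). The high cluster made up 52.9% and 52.0% of MD nuclei. Thinned to 2000 UMIs, Oprk1 no longer passed the filter in MD and could not be tested there. In the fits without the filter Oprk1 also lay lower in female libraries in the other neuron groups, with no call. The log2 differences were -0.41 ± 0.13 in PVT, -0.59 ± 0.32 in IMD, -0.14 ± 0.34 in BSTpr and -0.74 ± 0.76 in Hb. That of PVT passed the adjusted p (0.0338, edgeR without the filter) but not the fold.

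Penk in BSTpr was higher in the female libraries. Its levels were 46.0, 10.6, 26.7, 10.9, 54.7 and 35.8 CPM in female replicates 1 to 6, from 3 to 30 UMIs each, and 0, 10.1, 12.7 and 11.7 CPM in unlabelled replicates 1 to 4, so 2 female libraries lay within the unlabelled range. The log2 difference was 1.64 ± 0.45 (adjusted p = 0.0312, edgeR), and the call was lost without unlabelled replicate 2, 3 or 4 (adjusted p = 0.0521, 0.0537 and 0.0658). In Hb, Oprm1 was 241 ± 117 CPM in female and 138 ± 100 CPM in unlabelled libraries, which overlapped, and the log2 difference of 0.89 was not called, except without unlabelled replicate 2 (1.49, adjusted p = 0.00766).

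Whether the pattern over groups or subtypes differed between the label groups was tested as an interaction. None of 30 tests of Oprm1, Oprk1 and Oprl1 passed in edgeR's quasi-likelihood test, and 2 had an unadjusted p under 0.05, where at most 1.94% of all genes were called in any of the 10 contrasts. The larger was Oprm1 in Hb, whose level against the other groups was -0.52 in unlabelled and 0.49 in female libraries (difference 1.01 ± 0.29, adjusted p = 0.0511). The other was Oprk1 in MD (-0.93 ± 0.38, adjusted p = 0.208).

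**Figure D4:**
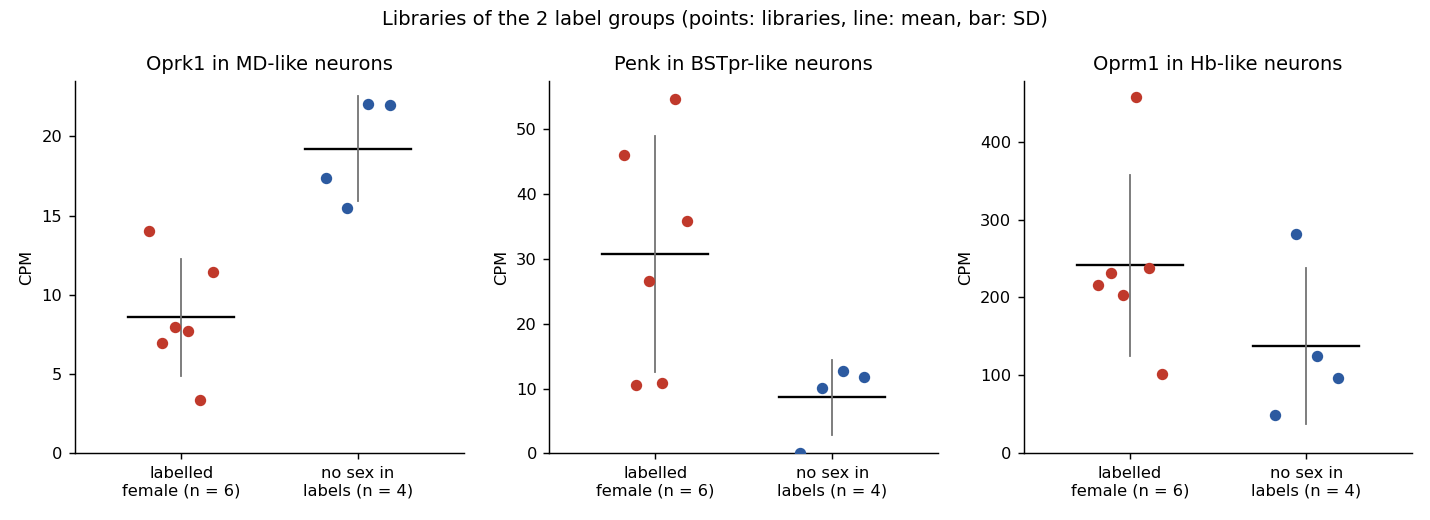
Levels (CPM, vertical axes) of Oprk1 in MD, Penk in BSTpr and Oprm1 in Hb in the 6 female libraries and the 4 libraries with no sex in their labels, with points for libraries, lines for means and bars for SDs. The groups do not overlap for Oprk1 in MD (female up to 14.0, unlabelled from 15.5 CPM) and overlap in the other 2 panels.

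The genes whose profile was most like that of a receptor were found by correlation over 90 sums of a library and a class (10 libraries, 9 classes, each gene centred within its library) among 10447 genes. Oprk1 was most like Gm28376 (Pearson r = 0.90), Astn2 (0.90) and Kcnq5 (0.88). Oprm1 was most like Stum (0.67), Alpk1 (0.66) and Khdrbs2 (0.64), and Oprl1 most like Gm13112 (0.64), Traf3 (0.63) and Pard3bos1 (0.62). Sums of 1 library share its depth and its mice, so these values are a description.

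The genes that act with the receptors were taken as a list of 45, of which 43 were in the file: enzymes that cut or break down peptides, the further precursor Pomc and the scavenger receptor Ackr3, G proteins, effector channels and cyclases, and regulators (receptor kinases, arrestins and RGS proteins). Over cell types 32 were tested. In neurons 21 were called higher and 3 lower, with a median log2 fold of 1.02 against 0.00 for all genes, of which 29.5% were higher and 27.9% lower. All 8 effectors tested were higher in neurons, among them the calcium channel gene Cacna1b (3.25 ± 0.14; 367 ± 69.5 CPM against 43.5 ± 31.1 in the other types) and the GIRK channel gene Kcnj6 (3.04 ± 0.15). Gnai2, a G protein subunit, was lower in neurons (-2.26 ± 0.13), and Arrb2, an arrestin, was highest in microglia (3.69 ± 0.20).

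In PVT against the other neuron groups 7 of 38 pathway genes were called higher and 7 lower, with a median of 0.04 against -0.01 for all genes, of which 10.8% were higher and 6.82% lower. The GIRK gene Kcnj5, named after its values were seen, was higher by 2.12 ± 0.13 on the log2 scale. The enkephalin-degrading enzyme gene Mme (-3.15 ± 0.25), the RGS gene Rgs6 (-2.51 ± 0.17) and Pam, whose enzyme amidates peptides (-1.57 ± 0.10), were lower in PVT. BSTpr had 11 genes higher and 5 lower (median 0.20 against 0.00 for all genes, 11.5% higher and 7.65% lower). They included 5 of 11 processing and breakdown genes that were higher, such as Pam (1.31 ± 0.09) and the convertase gene Pcsk1 (1.03 ± 0.20).

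Hb, where Oprk1 was lowest and Pnoc undetected, had 8 genes higher and 13 lower of 38 (20.4% and 21.1% of all genes). Of its 9 effectors tested, 7 were lower and none higher, with a median of -2.63, among them Cacna1a (65.3 ± 42.3 CPM against 695 ± 111 in the other groups, -3.82 ± 0.16) and Cacna1b (-3.46 ± 0.15). Mme (5.03 ± 0.16; 82.4 ± 9.55 CPM against 4.08 ± 3.11), Rgs6 (4.70 ± 0.12) and Pam (2.69 ± 0.09) were higher in Hb, each in 10 of 10 libraries.

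Among the PVT subtypes 36 pathway genes were tested. PVT3, the subtype low in Oprm1 and Oprk1, had 5 higher and 9 lower (7.33% and 7.45% of all genes), among them the convertase gene Pcsk1 (2.12 ± 2.86 CPM against 15.02 ± 4.26, -2.86 ± 0.37), the GIRK gene Kcnj9 (-0.998 ± 0.069) and Rgs7 (-1.22 ± 0.05), while Kcnj5 was higher (1.35 ± 0.08). PVT4, with the Penk nuclei, had 3 higher and none lower (5.09% and 4.22% of all genes), among them Pcsk1n, whose product inhibits the convertase (0.91 ± 0.05), and Rgs20 (0.76 ± 0.08). PVT2 had 7 higher and 2 lower (5.51% and 4.92% of all genes), with Kcnj5 lower (-1.64 ± 0.12; 11.9 ± 6.76 CPM against 43.1 ± 8.52). PVT1 had 3 higher and 2 lower (3.64% and 3.1% of all genes), with Rgs6 lower (-1.87 ± 0.12), and PVT5 3 higher and 5 lower (3.34% and 3.01%), with Rgs6 higher (1.84 ± 0.10).

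**Figure D5:**
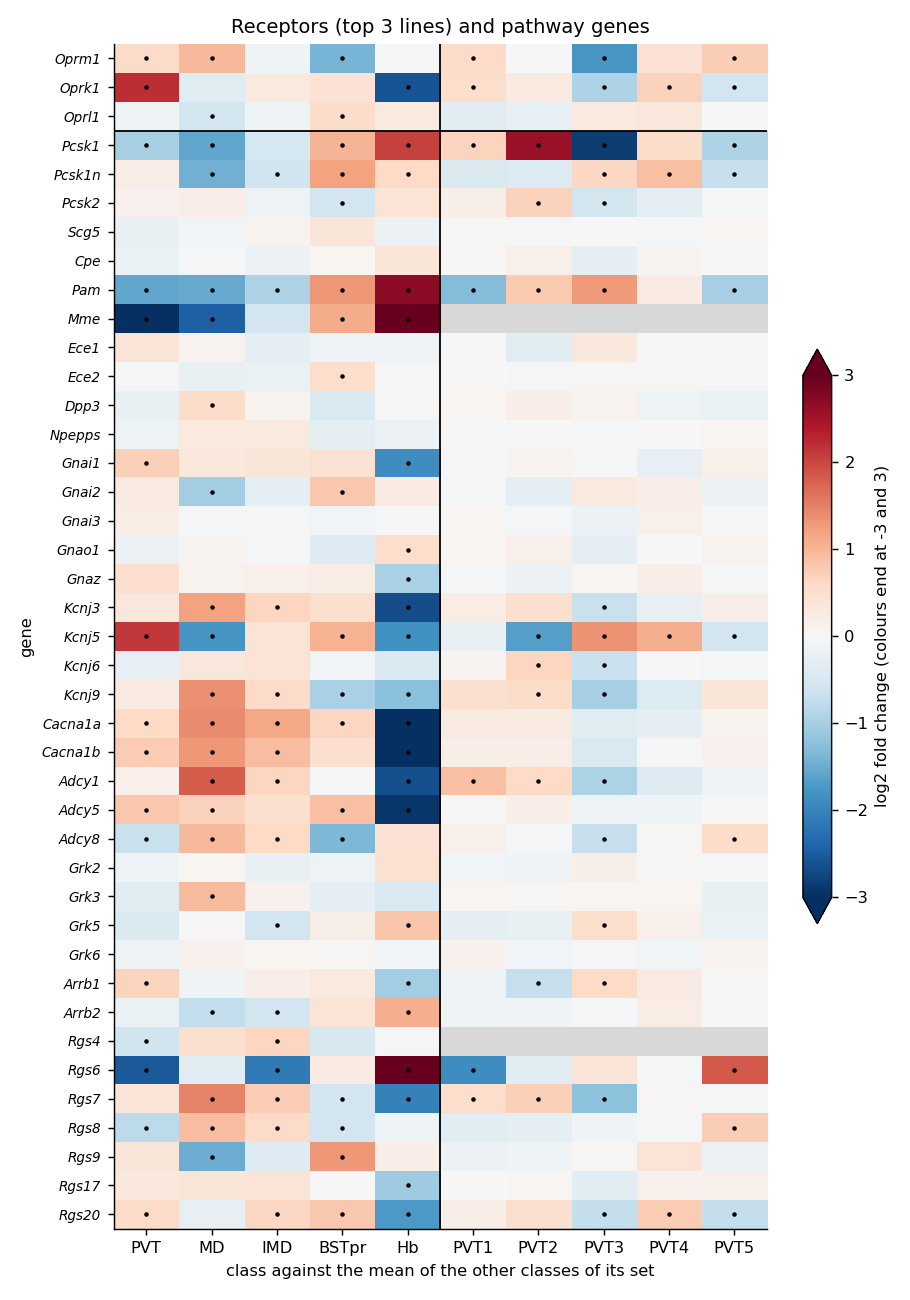
Log2 fold changes of the 3 tested receptors (top lines) and 38 pathway genes (vertical axis) in each of the 5 neuron groups and 5 PVT subtypes against the mean of the other classes of its set (horizontal axis). The colour scale ends at -3 and 3, dots mark calls and grey marks genes that were not tested. Hb shows the deepest colours, with Mme (5.03) and Rgs6 (4.70) high and Cacna1a (-3.82) low, and Oprk1 is high in PVT (2.21) and low in Hb (-2.60).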

How the data were processed

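Deposited were raw UMI counts per gene and nucleus, made by the authors with Cell Ranger (version 6.1.1 in the submitters' processing notes) on mm10, and metadata with cell names. The deposited percent of mitochondrial UMIs, made by the authors, served only as a check (at most 4.99%). The authors left out low-quality nuclei and doublet clusters. Further metadata columns, 22 in number, were not used. Scrublet (scanpy 1.11.5) marked 189 of 20503 nuclei (0.922%) as doublets, which were kept except in an alternative.

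Neurons were clustered in Python 3.11.15 on 17365 genes counted in both label groups: Pearson residuals, 3000 variable genes, 6 components (18 for PVT), Harmony over libraries, 20 neighbours and resolutions of 0.3 and 0.4. The rule that names clusters was changed once after names had been seen and before any opioid value was looked at. With the members kept in clustering 98.9% of neurons and 93.9% of PVT nuclei kept their names. UMI sums were fitted with edgeR 4.0.16 in R 4.3.3 (TMM, filterByExpr, glmQLFit, glmQLFTest) with library as a block, tested first on simulated data, where 98.3 to 100% of changed genes were recovered. DESeq2 1.42.0 was an alternative. CPM and log2 folds were computed here. Counting error alone sets the floors of 3 UMIs.

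The members, gene lists and tests were chosen with earlier results of these data known. Named were the 7 members, per role the pathway genes with the largest called folds, the genes most like each receptor, and markers.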

Additional observations from a re-analysis of the deposited data

Results flagged for a closer look

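In 8 of 61 sets of libraries with at least 20 UMIs the highest library stood far from the others of its class by Dixon's test. Chance flags about 1 in 20 independent sets of like precision. These sets share nuclei and rest on sums of unequal size, so the count of flags cannot be read against that rate. Oprm1 in OPCs reached 146.327 CPM in unlabelled replicate 4 (24 UMIs in 18 nuclei) against a median of 14.0 CPM. Oprk1 in microglia reached 23.1616 CPM in the same library (20 UMIs in 348 nuclei) against a median of 4.69 CPM. Oprm1 in BSTpr reached 156.891 CPM in unlabelled replicate 1 (37 UMIs in 13 nuclei) against a median of 75.1 CPM.

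Female replicate 1 stood apart for Penk in neurons (7.56445 CPM, 34 UMIs, median 2.50 CPM), for Pdyn in neurons (4.00471 CPM, 18 UMIs, median 0.517 CPM) and for Pdyn in IMD (44.5529 CPM, 17 UMIs in 52 nuclei, median 1.49 CPM). Unlabelled replicate 2 stood apart for Pnoc in BSTpr (42.182 CPM, 25 UMIs in 47 nuclei, median 7.27 CPM) and for Oprl1 in PVT2 (41.4328 CPM, 9 UMIs in 13 nuclei, median 15.3 CPM).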

How the results depend on the processing

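Alternatives were DESeq2, RLE size factors, the block, the filter, thinning, deeper nuclei, single markers and each library or label group left out. Single markers turned Oprm1 in Hb from 0.00 to -0.54. In unlabelled libraries alone calls over cell types fell from 4 to 2, and under the filter from 8 to 5. Calls over PVT subtypes fell from 7 to 3 (of 9 tests) with single markers, and under the filter from 2 to 1 in female libraries alone. Anterior against posterior rose from 1 to 2 calls with no replicate block, in female libraries alone and with neurons over 2000 genes. Calls between label groups fell from 2 to 1 with the replicate number as a block and to 0 of 7 tests after thinning. Same-numbered libraries did not deviate together (r = 0.04, 0.03, -0.11 and 0.02, best match the own number in 1 of 4). The Oprm1 share in PVT moved from 34.8% to 21.4% at 1000 UMIs and 73.6% with no thinning.

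With each library left out, calls ranged over 3 to 5 (cell types), 7 to 9 (under the filter), 6 to 9 (neuron groups), 10 to 12 (under the filter), 6 to 7 (PVT subtypes), 1 to 2 (under the filter), 1 to 2 (anterior against posterior), 1 to 2 (label groups) and 0 to 0 (detection together). Alternatives chosen after seeing the data were those of the fits without the filter and detection together in unlabelled libraries alone.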
